A study of Homo sapiens with 6 samples.

Results

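The microRNA-induced silencing complex (miRISC) was examined through the translation of the mRNAs that encode its Argonautes (AGO1, AGO2, AGO3 and AGO4) and GW182 proteins (TNRC6A, TNRC6B and TNRC6C). The mRNA of the DEAD-box helicase DDX6 was counted with them as a miRISC gene. The 8 genes are those with these symbols, a list drawn up with earlier results of these data known. Of these, 7 are among the 8121 genes with a translational efficiency and 4 (AGO3, AGO4, TNRC6C and DDX6) are among the 9570 genes with a codon-by-codon occupancy profile. Only AGO3, AGO4 and DDX6 have both measures. The translational efficiency of TNRC6C and the occupancy of AGO1, AGO2, TNRC6A and TNRC6B are not analysed here.

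An Argonaute protein holds a microRNA and pairs it with sites in target mRNAs. GW182 proteins bind Argonaute through glycine-tryptophan repeats and recruit the PAN and CCR4-NOT deadenylases. DDX6, which binds the CNOT1 scaffold of CCR4-NOT, takes part in translational repression and in decapping.

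The samples were HEK293 cells, a human embryonic kidney line, which the labels describe as treated with control siRNA. From each of 3 replicate lysates a ribosome-protected fragment (RPF) library and a total RNA library were made, so the series holds 3 RPF and 3 total RNA libraries of 1 condition, and no treated group is compared here. The labels do not say that the replicates were separate cultures, and the p-values then measure the spread between these lysates, which may be technical. Of 5 genes typical of HEK293 cells (VIM, NEFM, NEFL, INA and LIN28B), 5 were in both tables, and of 5 genes of liver, blood, muscle and pancreas (ALB, HBB, PTPRC, MYH7 and INS), 0 were in either.

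The codons that carried the most footprints are shown first, because the profiles described further on turn on them. Each sequence is 27 nt of mRNA written 5′ to 3′ as DNA, from GENCODE on GRCh37 (hg19), with the occupied codon in capitals and codons numbered from the AUG as 1. Those of AGO3 and AGO4 lie in coding exons on the plus strand of chromosome 1, at chr1:36506013-36506039 for AGO3 codon 719, chr1:36505983-36506009 for AGO3 codon 709 and chr1:36282524-36282550 for AGO4 codon 25. That of TNRC6C lies in a coding exon on the plus strand, chr17:76047037-76047063. Those of DDX6 lie on the minus strand. Codon 444 is within a coding exon at chr11:118625529-118625555, while the windows of codons 90 and 164 cross an exon junction, with an intron inside chr11:118650428-118651838 and chr11:118636059-118638952. The 5′UTR codon -68 of DDX6 is at chr11:118657150-118657176 and the start codon at chr11:118656946-118656972.
AGO3 codon 719: cgattattttgtGCTgataggacagaa
AGO3 codon 709: tacattgtagttCAGaagagacatcac
AGO4 codon 25: cttggaactgttGGAaaaccaattcga
TNRC6C codon 636: gacaccacgagaTCTgggaacagtggc
DDX6 codon 90: aaaacttcggatGTGacctccacaaaa
DDX6 codon 164: ctgaagaaggacAATatacaagcaatg
DDX6 codon 444: tatgatgatcgcTTCaacctgaaaagt
DDX6 codon -68: aaaataaaaagtTGAttccgtgcaaga
DDX6 start codon: aattaaaacagcATGagcacggccaga

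None of these 9 windows was found in a transcript of another gene. Exact copies in the genome numbered 1 for each window inside an exon and 0 for the 2 that cross a junction, which are joined only in the spliced mRNA.

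Translational efficiency, here RPFs over total RNA for each gene, differed between the Argonaute and GW182 genes and DDX6. The Argonaute and GW182 mRNAs lay below the median of all genes (0.383), and DDX6 lay above it. Of the 7 measured genes 6 were lower and 1 was higher by limma on log2(ratio + 0.01) with Benjamini-Hochberg adjustment over 8121 genes at an FDR of 0.05. The median SD over the replicates of a gene was 0.10 on the log2 scale, and 44.6% of all genes passed as lower and 44.7% as higher by the same test. A call by itself therefore says little, and the order and the size of the differences are given below.

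AGO2, an Argonaute able to slice its targets, had translational efficiencies of 0.255, 0.304 and 0.265 in replicates 1 to 3. AGO3 had 0.282, 0.257 and 0.270. The ranges of these 2 genes overlapped, and the exact permutation test on 3 against 3 values gave p = 0.9. AGO1 had 0.209, 0.218 and 0.217 and AGO4 had 0.208, 0.220 and 0.213, again with overlapping ranges (exact p = 0.9). By overlap of ranges the 4 Argonautes thus fell into 2 levels, which is a description and not a tested grouping. Each replicate of AGO2 and AGO3 was above each replicate of AGO1 and AGO4, with means 1.26 to 1.29 times as high (exact permutation p = 0.1 for each of those pairs, the smallest that 3 against 3 values allow, so no pair could pass 0.05).

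Against the median of all genes, AGO1 fell by 0.81 ± 0.05 (SE) on the log2 scale (adjusted p = 4.4e-05, limma) and AGO4 by 0.81 ± 0.05 (adjusted p = 4.5e-05, limma). AGO3 was lower by a log2 difference of -0.49 ± 0.05 (adjusted p = 0.00046, limma) and AGO2 of -0.47 ± 0.07 (adjusted p = 0.0015, limma). Among the means of all genes these 4 stood at percentiles 27.6 to 36.7. AGO4, AGO1 and AGO3 lie side by side on chromosome 1 in the same orientation (chr1:36273617-36323491, chr1:36335409-36396133 and chr1:36396319-36538101), and AGO2 is on chromosome 8. The neighbours AGO4 and AGO1 overlapped in range, while AGO3 overlapped with AGO2 and not with AGO1 or AGO4. A link between level and gene position was not tested.

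Of the GW182 mRNAs, TNRC6A and TNRC6B have a translational efficiency, and both lay at or under the lower level of the Argonautes. TNRC6A (chr16:24621530-24838953) had 0.149, 0.135 and 0.141, lower in each replicate than each replicate of the other 6 genes. Its mean of 0.142 ± 0.007 (SD, n = 3) was at percentile 14.7 of all genes, a log2 difference from the median of -1.37 ± 0.05 (SE; adjusted p = 9.5e-06, limma). TNRC6B (chr22:40440821-40731812) had 0.214, 0.178 and 0.206. It differed from the median by -0.91 ± 0.07 on the log2 scale (adjusted p = 0.00010, limma), and its range overlapped those of AGO1 (exact permutation p = 0.2) and AGO4 (exact permutation p = 0.3). TNRC6B was 1.41 times TNRC6A, with no overlap.

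DDX6 (chr11:118618472-118661873) had 1.08, 1.04 and 1.06, at percentile 81.2 of all genes. It was higher than the median by 1.44 ± 0.05 (SE) on the log2 scale (adjusted p = 6.0e-06, limma). Its mean of 1.06 ± 0.02 (SD, n = 3) was 7.47 times that of TNRC6A, 4.93 times that of AGO1 and 3.85 times that of AGO2. In all, 17 of the 21 pairs of genes did not overlap (exact permutation p = 0.1 each, 0.12 after Benjamini-Hochberg adjustment over the 21 pairs). The share over all pairs of genes was not computed. The replicate SD was small (median 0.10 on the log2 scale) against the quartiles of the gene means (0.198 to 0.825), so a lack of overlap by itself says little. The 4 pairs that did overlap were AGO1 with AGO4, AGO2 with AGO3, and TNRC6B with AGO1 and with AGO4. The ascending order was TNRC6A, then TNRC6B, AGO4 and AGO1, then AGO3 and AGO2, then DDX6, where only the steps between these 4 sets exceeded the spread of the replicates.

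**Figure D1:**
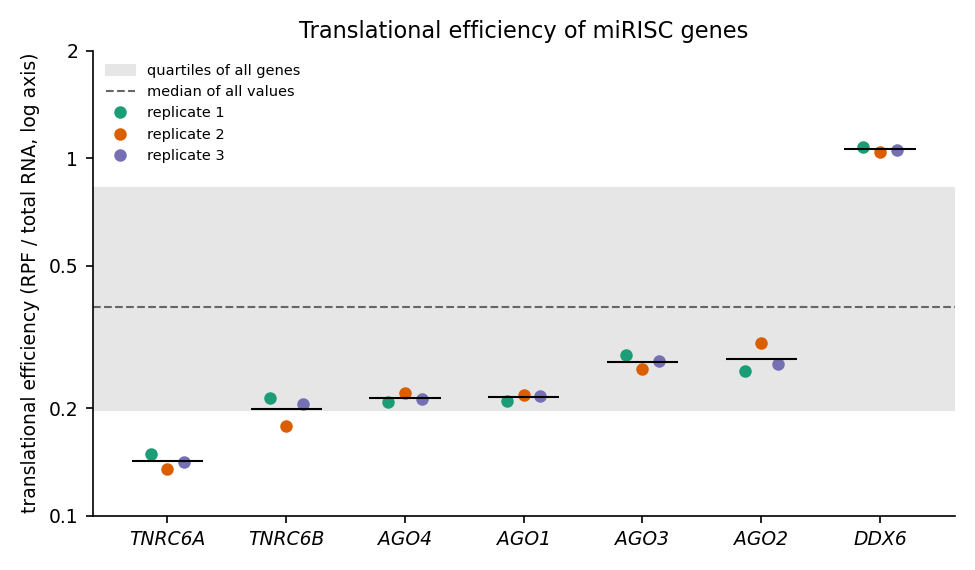
Translational efficiency (RPF over total RNA, log axis) of the 7 measured miRISC genes. Points are the 3 replicates and black bars their means, the dashed line is the median of all values (0.383) and the grey band spans the quartiles of the gene means (0.198 to 0.825); DDX6 lies above the band, TNRC6A below it and the Argonautes within its lower part.

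The proteins that miRISC works with were compared with the same median. Of 56 genes in 4 lists, 47 were measured, of which 19 were higher, 18 were lower and 10 did not pass. That is 40.4% higher and 38.3% lower, under the 44.7% and 44.6% of all genes, while 21.3% did not pass, against 10.7% of all genes. Their median translational efficiency was 0.395, against 0.385 for the means of all genes.

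Among genes of miRNA biogenesis, 3 of 7 were higher and 3 were lower. DICER1, which cuts precursor hairpins into the miRNA duplex, had 0.101, 0.090 and 0.093, and DGCR8, the partner of DROSHA in the nucleus, had a mean of 0.148 ± 0.020 (SD, n = 3). Both were lower than the median (log2 differences of -1.91 and -1.32). At the other end were the nuclear transport factors RAN, with 1.86 ± 0.06, and IPO8, with 1.15 ± 0.02 (SD, n = 3), which were higher (2.25 and 1.56 on the log2 scale). DROSHA, another nuclear processing enzyme, fell by 0.49 on the log2 scale, and XPO5, which exports precursors, was higher by 1.32.

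Of the CCR4-NOT and PAN genes, which shorten poly(A) tails, 5 of 14 were higher and 7 were lower. TNKS1BP1, a protein found with CCR4-NOT, had the lowest mean (0.0814 ± 0.0046), followed by the deadenylase CNOT8 (0.143 ± 0.018; SD, n = 3). The highest were PABPC1, the main cytoplasmic poly(A)-binding protein, with 1.85 ± 0.14, and the CCR4-NOT subunit CNOT11, with 0.870 ± 0.009 (SD, n = 3). The paralogous catalytic subunits differed in sign. CNOT7 had 0.556 and was higher than the median by 0.52, whereas CNOT8 fell by 1.37 on the log2 scale. CNOT1, the scaffold that DDX6 binds, had 0.194 and fell by 0.95 on the log2 scale.

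The list of DDX6 partners and decapping factors also held the helicases EIF4A1 and EIF4A2. Of its 12 measured genes, 4 were higher and 3 were lower, and 5 did not pass. PATL1, which links DDX6 to decapping, had 1.37 ± 0.07 and ATXN2L had 1.07 ± 0.06 (SD, n = 3), both higher. ATXN2, the paralog of ATXN2L, had 0.149 ± 0.024 and the decapping enhancer EDC3 had 0.210 ± 0.022 (SD, n = 3), both lower. The catalytic subunit DCP2 (0.365) and its activator DCP1A (0.369) were not separated from the median (adjusted p = 0.25 and 0.39, limma). The paralogous helicases EIF4A1 and EIF4A2, on which the study centres, had 0.746 and 0.241, on either side of the median, by 0.94 and -0.65 on the log2 scale.

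Of the other cofactors, 7 of 14 were higher and 5 were lower. The HSP90 chaperone HSP90AA1, which helps to load Argonaute, had 4.38 ± 0.20, and its cochaperone PTGES3 had 4.13 ± 0.34 (SD, n = 3). GIGYF1, a partner of the cap-binding repressor EIF4E2, had the lowest mean of the 47 genes, 0.0566 ± 0.0041, at percentile 1.51 of all genes. The RNA kinase CLP1, for which 0.204 ± 0.007 was measured, was also lower. These 5 lower genes included the helicase MOV10 (0.239), GIGYF2 (0.255) and EIF4E2 (0.282).

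**Figure D2:**
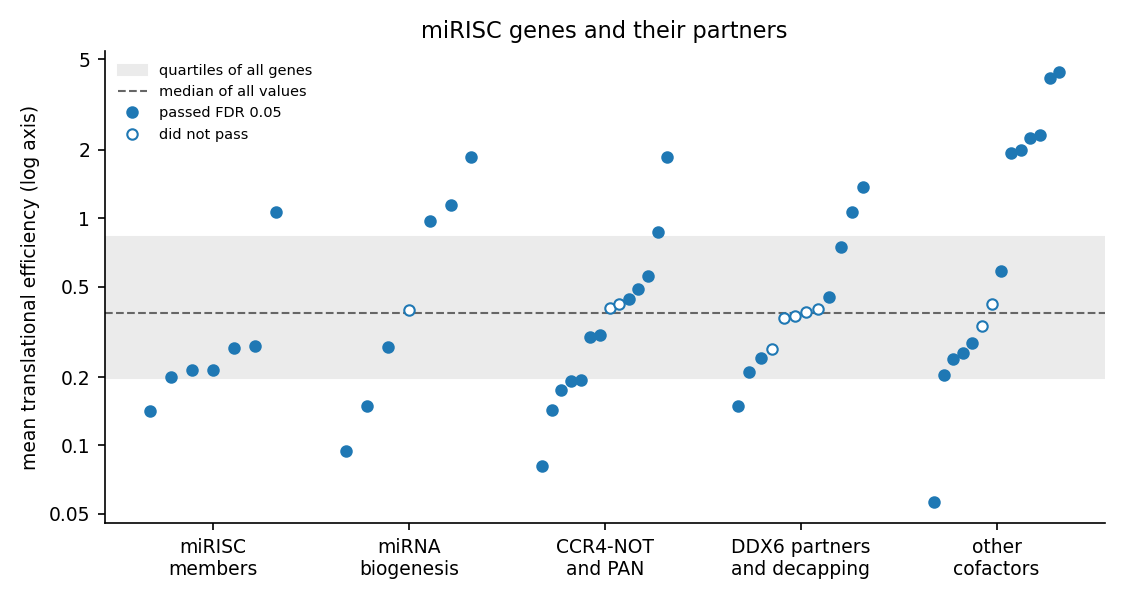
Mean translational efficiency (log axis) of the miRISC genes and of 4 lists of partner genes, 1 point per gene ordered by level within its list. Filled points passed the test against the median of all values (dashed line), open points did not, and the grey band spans the quartiles of all genes; each list spreads to both sides of the median, from 0.0566 (GIGYF1) to 4.38 (HSP90AA1).

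Occupancy profiles give the footprints codon by codon. Each value is the number of in-frame RPFs at a codon, normalised for library size and divided by the TPM of the transcript, with the replicates combined. It is therefore a level per unit of mRNA and can be compared between mRNAs per codon. The values of a transcript were sums of whole multiples of 3 steps, where a step is what 1 read of 1 RPF library adds to a value. For the 4 mRNAs every value above 0 (461 in AGO3, 244 in AGO4, 545 in TNRC6C and 485 in DDX6) had 1 solution, so the reads of each library were recovered. The libraries are named by the size of their step, smallest, middle and largest, from the deepest to the shallowest, and were not matched to replicate numbers, so comparisons of mRNAs library by library assume that the order of the steps is the same in each mRNA.

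The profiles rest on 20218 in-frame reads for DDX6, 2028 for AGO3, 1504 for TNRC6C and 584 for AGO4. Because the step of a transcript falls as its TPM rises, its inverse gives the mRNA abundance, expressed here in ppm of the sum over 9460 solved transcripts. DDX6 mRNA was at 109, 108 and 106 ppm in the 3 libraries, AGO3 at 49.4, 54.2 and 54.5, AGO4 at 20.0, 17.3 and 17.9, and TNRC6C at a mean of 12.6 ± 0.5 (SD, n = 3 libraries). The 4 mRNAs did not overlap in level. The share over all pairs of transcripts was not computed. The library SD was small (0.5 to 2.9 ppm), so this lack of overlap by itself says little. DDX6 was 2.05 ± 0.14 times AGO3 and 8.58 ± 0.25 times TNRC6C (SD, n = 3 libraries). The median transcript was at 35.9 ppm.

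Mean occupancy over the CDS was 0.144 per codon for DDX6, 0.0259 for TNRC6C, 0.0177 for AGO3 and 0.0143 for AGO4, at percentiles 91.3, 26.7, 15.1 and 11.2 of the 9570 transcripts. Taken library by library, DDX6 carried 8.19 ± 0.38 times the occupancy of AGO3, 10.1 ± 0.5 times that of AGO4 and 5.57 ± 0.20 times that of TNRC6C (SD, n = 3). AGO3 was above AGO4 in 3 of 3 libraries, by 1.23 ± 0.07 times (SD), and TNRC6C was above AGO3 in 3 of 3, by 1.35 to 1.60 times. DDX6, AGO3 and AGO4 kept the order they have by translational efficiency, where DDX6 was 3.93 times AGO3 and 4.95 times AGO4. Over 6912 genes in both tables, translational efficiency and mean occupancy per codon had a Spearman rho of 0.69 (a description across genes, which share libraries and total RNA).

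**Figure D3:**
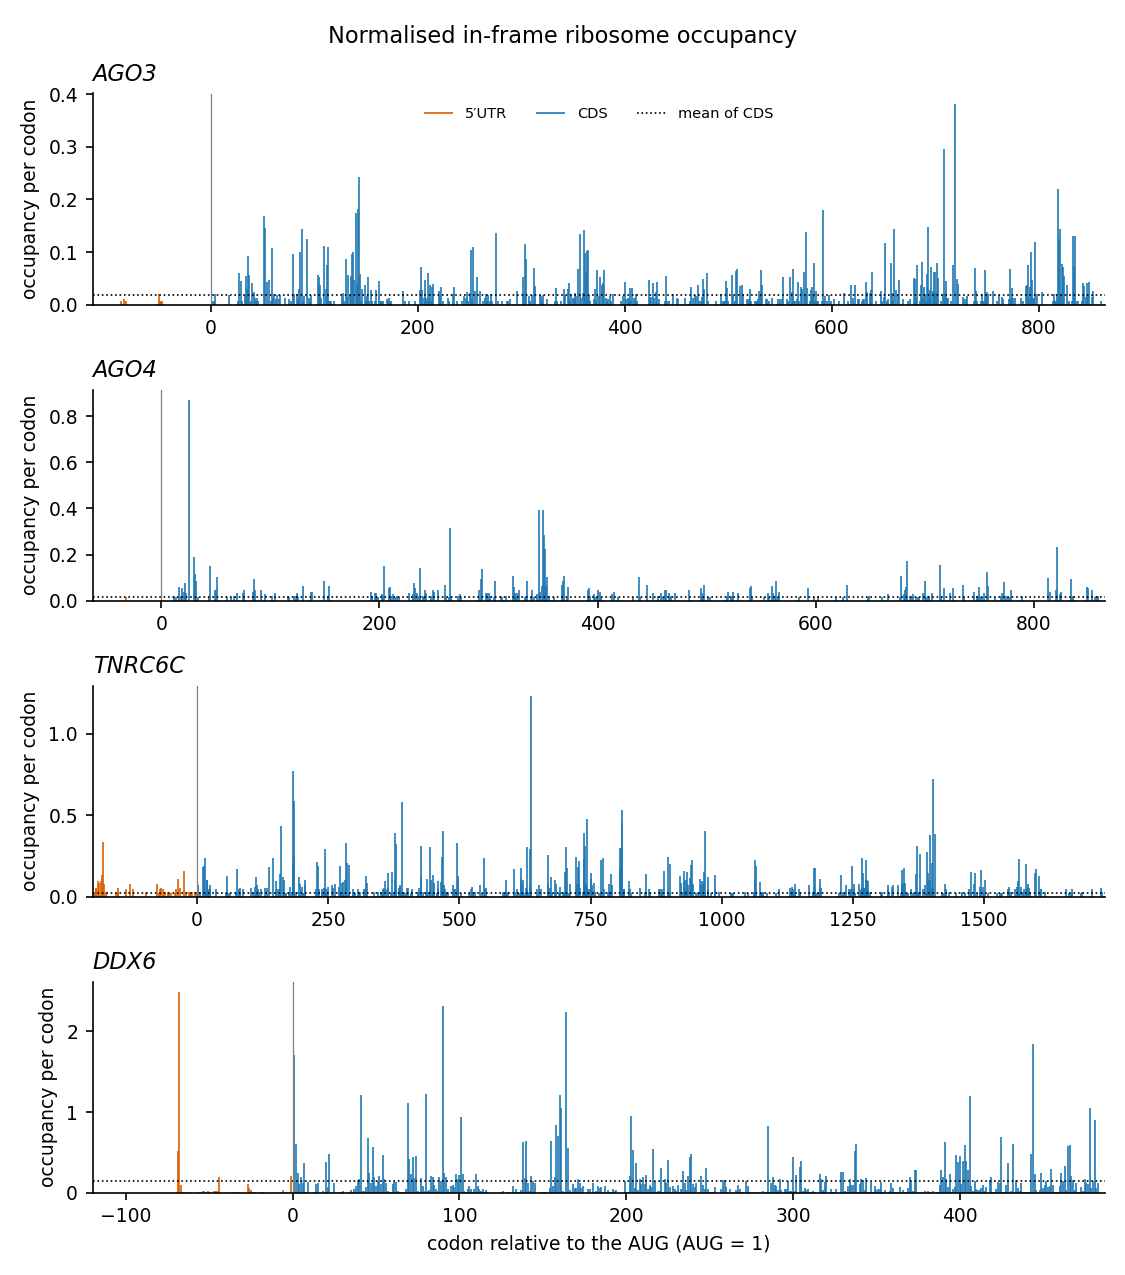
Normalised in-frame occupancy at each codon of the 5′UTR (orange) and CDS (blue) of AGO3, AGO4, TNRC6C and DDX6, against the codon position relative to the AUG; the dotted line is the mean of the CDS and each panel has its own linear scale. The tallest line of DDX6 is in the 5′UTR, at codon -68 (2.49), and that of AGO4 is at codon 25 (0.872).

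DDX6 was covered along its whole CDS of 484 codons. Reads fell on 86.4% of its codons, against 52.7% for AGO3, 29.1% for TNRC6C and 28.1% for AGO4. The highest codons of the DDX6 CDS were codon 90 (2.31, from 622 reads, with at least 152 in each library), codon 164 (2.24, from 259, 184 and 158 reads), codon 444 (1.84, from 181, 176 and 130 reads) and the start codon (1.71, from 210, 145 and 110 reads). Each was high in 3 of 3 libraries. Codon 90 held 3.26% of the CDS reads (95% Wilson interval 3.01 to 3.52%, which covers counting error only, as do the intervals and limits that follow). The windows of codons 90 and 164, shown above, cross an exon junction, as do 19.2% of the windows of the DDX6 CDS.

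The start codon of DDX6 was 11.8 times the mean of its CDS and held 2.43% of the CDS reads (Wilson interval 2.23 to 2.66%). At the start codons of the other 3 mRNAs reads were few. That of TNRC6C had 2 reads, 2.76 times the CDS mean, a share of 0.141% (0.0386 to 0.511%). AGO3 had 1 read, 0.404 times the CDS mean, and AGO4 had 0 of 582 CDS reads, which allows a share of up to 0.515%. A departure of these 3 start codons from their CDS mean was not detectable at this depth, and the shares come from CDSs of different length.

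AGO4 had the most uneven profile of the 4 by the share of its highest codon. Codon 25 held 7.06% of the CDS occupancy, 60.8 times the CDS mean, from 15, 10 and 13 reads in the 3 libraries. Its share of reads was 6.53% (Wilson interval 4.79 to 8.83%). The next codons, 346 and 350, had the same 6, 12 and 1 reads and so rest mainly on a single library. In AGO3, TNRC6C and DDX6 the highest codon held 2.52%, 2.76% and 3.31% of the CDS occupancy. A share of 5% or more, as in AGO4, was found in 48.1% of all transcripts.

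In AGO3 the highest codons lay towards the 3′ end. Codon 719 (0.382) had 26, 13 and 12 reads and codon 709 (0.296) had 14, 13 and 11 reads, 10 codons apart in the same exon. A second high place was codons 142 and 143, with 22 and 31 reads. In TNRC6C, the highest were codons 636 (1.23, from 11, 18 and 9 reads), 183 (0.773, from 9, 9 and 6 reads) and 1402 (0.726, from 9, 9 and 5 reads), spread over the CDS of 1727 codons and each seen in 3 of 3 libraries. Codons at 10 times the CDS mean or more, leaving out the first 5 and last 5, numbered 30 in TNRC6C, 12 in AGO4, 6 in AGO3 and 3 in DDX6. The mRNA with the most reads had the lowest count. With the median of the occupied codons as the baseline it was 6, 3, 6 and 14.

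The 2 ends of the CDS were compared in windows of 75 codons, the stretch that the study plotted from the AUG and from the stop codon. In TNRC6C the first window had 16, 15 and 12 reads in the 3 libraries and the last had 5, 3 and 3. The first was higher in 3 of 3 libraries, and the ratio of the pooled occupancies was 3.98, at percentile 93.9 of all transcripts. The first window itself, at 0.0188 per codon (percentile 26.6), was under the CDS mean of 0.0259. It was the last window, at 0.00471 (percentile 4.41), that was far from it. AGO4 had 37, 30 and 26 reads in the first window and 17, 18 and 6 in the last, a ratio of 2.42 at percentile 85.5, also higher in 3 of 3 libraries. Codon 25 accounted for 38 of those 93 first-window reads. A first window at least 2 times the last was found in 19.7% of 9343 transcripts. AGO4 fell under it, at 1.87, without the library of the largest step.

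AGO3 differed in the opposite direction between its 2 windows. Its first window had 62, 51 and 38 reads and its last had 111, 114 and 42, so the last was higher in 3 of 3 libraries, by 1.70 times in the pooled occupancy. In the shallowest library the ratio was only 1.11. A last window at least 2 times the first was found in 22.4% of transcripts, and AGO3 reached it only without the library of the largest step (2.00). In DDX6 the windows were near equal, with 1595, 1202 and 822 reads in the first and 1410, 1214 and 751 in the last. The ratio of 1.07 ± 0.07 (mean and SD over 3 libraries) did not depart from 1 beyond its spread. The paralogs AGO3 and AGO4 thus differed in opposite directions between these end windows, with library ratios of 0.447 to 0.905 and of 1.67 to 4.33. How often 2 transcripts differ in this way was not computed. Without the first 15 and last 15 codons the log2 ratio of AGO3 was -0.31, in place of -0.76 (library SD 0.52). Without the highest codon of each window that of AGO4 was 0.94, in place of 1.27 (library SD 0.71).

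**Figure D4:**
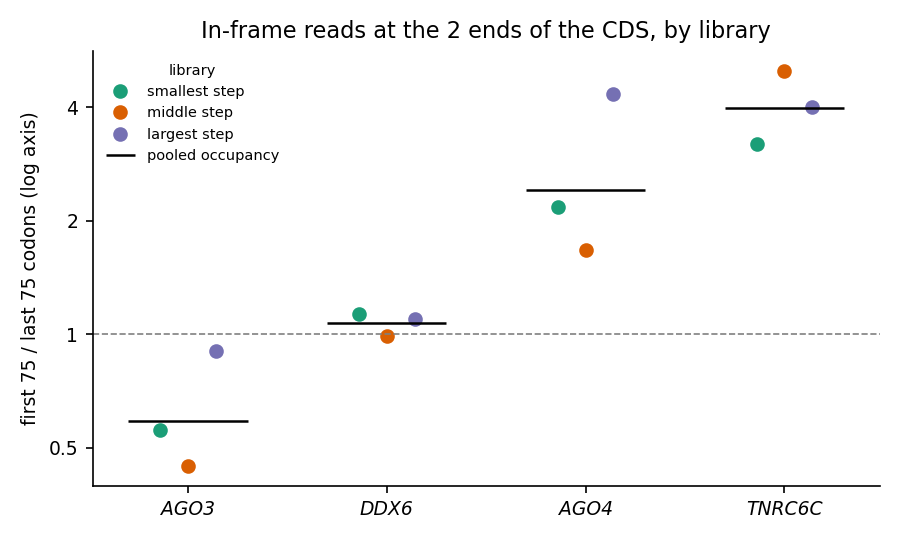
Ratio of in-frame reads in the first 75 to the last 75 codons of the CDS (log axis), with 1 point for each of the 3 RPF libraries, named by step size, and a black bar for the pooled occupancy. TNRC6C and AGO4 lie above 1 in 3 of 3 libraries, AGO3 lies below 1 in 3 of 3, and DDX6 lies around 1.

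Within the CDS, occupancy was also unequal over 10 equal stretches, numbered from the AUG. In DDX6 stretch 2 (codons 50 to 98) was at 1.49 times the CDS mean, with 1208, 1034 and 630 reads, and stretch 8 (codons 341 to 388) was at 0.386 times, with 357, 258 and 137 reads. In TNRC6C stretch 5 was the highest of the 10 (1.64 times) and stretch 10 the lowest (0.467 times). In AGO4 stretch 1 was at 1.84 times the mean and stretch 2 at 0.461 times, and in AGO3 stretch 2 was at 1.58 times and stretch 6 at 0.575 times.

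The GW182 proteins take their name from glycine-tryptophan pairs. In the reference CDS, a GGN codon next to a TGG codon, in either order, occurred 47 times in TNRC6A, 38 times in TNRC6B and 40 times in TNRC6C. These letters were searched on the coding strand in frame, and no protein sequence was used. In TNRC6C the pairs ran from codon 52 to codon 1695, nearly the length of the CDS. The codons that make up the pairs held 2.50% of the CDS occupancy while being 4.28% of the codons (34 reads). That is a mean of 0.0151 per codon, against 0.0259 for the whole CDS. The difference was not tested. Reads fell on only 29.1% of the TNRC6C codons, so a mean over these 74 codons is uncertain. Over the whole span of the pairs, occupancy was 1.65 times that of the 82 codons outside it, which had 40 reads.

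Mean occupancy of the 5′UTR, relative to the CDS, was higher in DDX6 and TNRC6C than in the 2 Argonautes. The mean over the whole 5′UTR was 24.2% of the CDS mean in DDX6 and 45.2% in TNRC6C, against 3.16% in AGO3 and 1.82% in AGO4. Of 6905 transcripts with a 5′UTR over 100 nt, 34.1% reached 10%, as did 2 of these 4. By library, from the smallest step to the largest, the share was 23.9, 20.3 and 28.5% in DDX6 and 46.3, 53.4 and 35.9% in TNRC6C, while AGO3 had 6.33% in the library of the smallest step and at most 1.71% in the others, and AGO4 had 5.36, 0 and 0%. The libraries of the first 2 mRNAs did not overlap with those of the Argonautes. How often 2 transcripts differ in this way was not computed. For DDX6 the difference rests on codons -68 and -69, without which its pooled mean was 6.51%. The Argonaute values rest on 9 reads in AGO3, 7 of them in the library of the smallest step, and 1 read in AGO4, in the same library, against 1095 reads in DDX6 and 75 in TNRC6C. Without that library the mean was 1.39% in AGO3 and 0% in AGO4, and without the library of the middle step it was 2.81% in AGO4.

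In DDX6 a single place made up most of this. Codon -68 had 287, 163 and 204 reads in the 3 libraries and an occupancy of 2.49, above that of each codon of the CDS. The highest 5′UTR codon exceeded the highest CDS codon in 4.79% of transcripts. Codon -69 beside it had 66, 55 and 24 reads. Together they held 73.0% of the 5′UTR reads, and without them the 5′UTR mean was 6.51% of the CDS mean. From codon -117 to codon -88 the 3 libraries had 0 reads.

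The sequence at codon -68, given above, is a TGA stop codon in the frame of the DDX6 CDS, and in the same frame TAA follows at -44, TGA at -11 and TAA at -3. The main reading frame is therefore closed 4 times from this peak to the AUG. Codon -44 had 54 reads. No ATG, in any frame, was found in the 267 nt before the start codon. The reference 5′UTR has 361 nt, and the part further upstream was not searched. Stop codons and ATGs were read from the reference transcript, and the authors' transcript may differ from it in the 5′UTR. Only in-frame RPFs are in the values, so reads of the other frames were not analysed here. The stop codons that end the CDS of DDX6, AGO3, AGO4 and TNRC6C each had an occupancy of 0. What the reads at codon -68 of DDX6 represent was not tested. The last 17 codons of the DDX6 5′UTR had 77 reads, of which 57 were at codon -1, next to the AUG. They averaged 11.6% of the CDS mean, and 35.3% of transcripts reached 10% in that window. AGO3 and AGO4 had 0 reads there. TNRC6C was at 38.3%, from 2, 4 and 0 reads in the 3 libraries, and this value was 16.5% without the library of the middle step and 57.9% without that of the largest step.

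In TNRC6C the 5′UTR reads were spread. They fell on 40 codons, from -195 to the AUG, with 36 reads in the first 49 codons, 4 and 14 in the next stretches of 49 and 21 in the last 49. The highest was codon -179 with 5, 4 and 2 reads. The AUG of this profile (chr17:76045144) is the annotated start in 1 GENCODE transcript and lies inside a longer CDS in 4 others. In the transcript TNRC6C-210 the same frame is open for 210 codons before it. The exon with this AUG holds at least 50 codons before it in each of these 5 transcripts, and 22 of the 75 reads fell there, at 47.4% of the CDS mean. Which of these transcripts the cells carried cannot be told apart from these values. The exon structure further upstream in the authors' transcript was not used here.

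**Figure D5:**
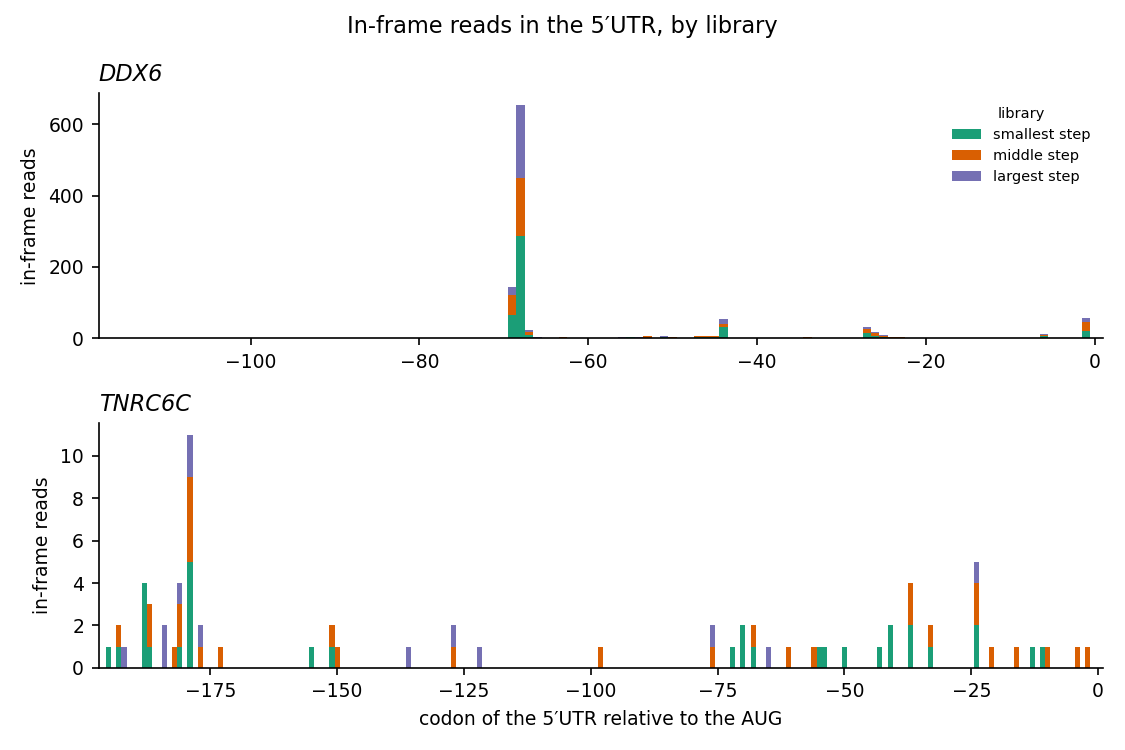
In-frame reads at each codon of the 5′UTR of DDX6 and TNRC6C, stacked by RPF library (linear axes, codon position relative to the AUG). In DDX6 reads pile up at codon -68, with 654 reads in the 3 libraries together, and in TNRC6C no codon exceeds 11 reads.

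The 3′UTRs held few reads. DDX6 had 23 over 1458 codons of 3′UTR, a mean of 0.0424% of that of its CDS at percentile 59.1 of all transcripts, with at most 2 reads at any codon. TNRC6C had 4, 2 and 0 reads in the 3 libraries, a mean of 0.452% of its CDS at percentile 88.0, which was 0.258% without the library of the smallest step and 0.682% without that of the largest. AGO4 had 1 read, in the library of the largest step, a mean of 0.155% at percentile 76.4, which was 0% without that library, 0.234% without that of the smallest step and 0.238% without that of the middle step. AGO3 had 0 of 2028 reads, which allows up to 0.148% of its in-frame reads. That limit is a share of reads and not a mean per codon, so it cannot be set against the percentages of the other mRNAs. The median over all transcripts was 0.0178%.

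Because the authors aligned short reads to transcripts, sequence that the members share with other genes was counted. Of the 30-mers of the reference CDS, 3 of AGO1 were found in AGO3, and AGO2, AGO4 and TNRC6C had 0 in another gene. The Argonautes share no other stretch of that length among themselves. DDX6 differed: 21.9% of its 30-mers occur in transcripts of 2 other genes, mainly the pseudogene DDX6P2. Mean occupancy in the 101 codons with a shared 30-mer was 0.820 ± 0.047 times that of the other codons (SD over 3 libraries). The medians went the other way, at 0.0527 in the shared and 0.0487 in the other codons. The high codons 90, 164 and 444 are among the other codons. How the authors treated reads that fit several transcripts is not stated in these sources, and the values of DDX6 in those codons are uncertain to that extent.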

How the data were processed

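HEK293 ribosome profiling (3 RPF and 3 total RNA libraries) was analysed from 2 deposited tables. The authors trimmed reads with cutadapt 1.16, removed PCR duplicates, and aligned RPFs with Bowtie 1.1.2 to hg19. For total RNA the methods name Hisat2 or TopHat2 (2.1.1 in the submitters' processing notes) and HTSeq 0.9.1. The deposited translational efficiency is a linear ratio, RPF over total RNA, for every gene and replicate, calculated by the authors in a way not stated in these sources. The deposited occupancy holds 1 value per codon, for in-frame RPFs of 28 to 30 nt, normalised by the authors for library size and TPM with replicates combined. 31 broken lines were rejoined, none of a member.

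Translational efficiency was fitted with limma 3.58.1 in R 4.3.3, without a filter on low values. Only AGO1 to AGO4, TNRC6A to TNRC6C and DDX6 and, of each partner list, the 2 highest and 2 lowest genes were to be named; DROSHA, XPO5, CNOT1, CNOT7, DCP1A, DCP2, EIF4A1, EIF4A2, MOV10, GIGYF2 and EIF4E2 were added after their values were seen. Members and lists were chosen with earlier results of these data known. Steps were matched to a relative tolerance of 1e-11, and both methods were tested on simulated data. Windows, UTR means and peaks were described without a test. Sequences came from GENCODE 44 lifted to GRCh37. Same-numbered RPF and total RNA libraries share a lysate according to the labels' protocol, so the pairing is inside each ratio. Total RNA depth is unknown from the tables.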

Additional observations from a re-analysis of the deposited data

How the results depend on the processing

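The 6 lower and 1 higher calls among the miRISC genes remained in each of the 7 alternatives for translational efficiency (another pseudocount, a filter on low values, the mean as reference, the replicate block, and leaving out each replicate), with a highest adjusted p of 0.0083 (limma, AGO2). With the replicate block, which here only centres each replicate on its own median, since the pairing of same-numbered libraries is already inside each ratio, 6 were lower and 1 was higher, and the log2 difference was -0.47 for AGO2 and 1.44 for DDX6; it changed no call of a member. Among partners, 18 to 20 were lower and 18 or 19 higher. Leaving out a replicate left 17 to 19 of 21 pairs without overlap. With windows of 50 codons the log2 ratio of first to last was -1.42 in AGO3, -0.12 in DDX6 and 2.66 in TNRC6C, in place of -0.76, 0.10 and 1.99. With the median over codons it was 0.29 in DDX6 and could not be computed in the other 3, whose median codon was 0 in 1 or both windows. The last 17 codons of the DDX6 5′UTR were at 11.6% of the CDS mean, 19.3% over the last 10 codons and 3.75% without the 5 codons next to the AUG. Its whole 5′UTR fell from 24.2% to 6.51% without codons -68 and -69, an alternative added after seeing the data, as was leaving out each RPF library in turn, whose effects on UTR and window values stand beside them. With the median of occupied codons as baseline, single-codon peaks numbered 3 in AGO4, 14 in DDX6 and 6 in TNRC6C. At 28 nt, 24.8% of the DDX6 CDS was shared. The cause of these shifts was not tested. Depth limits AGO4 and TNRC6C, whose last windows hold 41 and 11 reads.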
